A study of Mus musculus with 48 samples.

Results

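The genes described here are 9 parts of the Hippo pathway and of its transcriptional output in mouse liver: Ajuba, Ccn1, Ccn2, Ankrd1, Amotl2, Yap1, Wwtr1, Tead1 and Lats2. They were named by symbol and found by Ensembl identifier among the 55416 genes of each liver, and all 9 passed the filter on low counts. RNA came from 48 livers, 8 in each of 6 groups, of C57Bl/6J mice that ate a western diet for 8 weeks, from about 8 to 16 weeks of age. The knock-in groups DN:WT, DN:HET and DN:HOM carry no copy, 1 copy or 2 copies of a dominant negative point mutation of Nr1h3, the gene for the oxysterol receptor LXRα, and were male. The knockout groups KO:WT, KO:HET and KO:HOM carry no, 1 or 2 null alleles of the same gene, and the sex of these mice is not given in the labels. Both are germline alleles, carried by every cell of the body, wild-type mice were littermates, and the knock-in and the knockout colonies were kept and studied at separate sites, so that allele and site cannot be told apart between the studies. The knockout line began on a mixed background and was backcrossed, and the knock-in was made by genome editing in C57BL/6J.

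The Hippo pathway is a kinase cascade that limits tissue growth. The kinases STK3 and STK4 activate LATS1 and LATS2, which phosphorylate the coactivators YAP (Yap1) and TAZ (Wwtr1) and so keep them out of the nucleus. When the cascade is low, YAP and TAZ bind TEAD factors such as TEAD1 and raise the transcription of Ccn1, Ccn2, Ankrd1, Amotl2 and Lats2, among others. In liver, YAP is known for its high level in bile duct cells and for its part in liver size, in the ductular response to injury and in fibrosis. Transcript levels do not report where the YAP protein is, or whether it is phosphorylated.

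TEAD factors bind DNA at the letters CATTCC, or GGAATG on the opposite strand. RefSeq promoter windows of 250 bases before to 50 bases after the gene's start (GRCm38.p6) were held for 7 of the 9 genes, and were not held for Ccn2 and Tead1. The 6 letters were present on either strand in at least 1 window of each of these 7 genes, and in 14.7% of all 32851 windows in the table. Of all windows, 1.36% held the letters more than once, and those of Ajuba and Ankrd1 did so. In Lats2 the match began 4 bases after the start of 1 of 2 windows, and the other window had none. The stretches upstream of the other genes are shown because these genes are the ones usually read as the output or the parts of YAP and TEAD activity. Capitals mark each match, and the sequence runs 5′ to 3′ on the gene's own strand. A match is a description of the letters and not evidence of binding.
Ajuba (chr14:54577800-54577867, minus strand): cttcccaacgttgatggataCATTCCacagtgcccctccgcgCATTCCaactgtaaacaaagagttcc
Ccn1 (chr3:145650063-145650108, minus strand): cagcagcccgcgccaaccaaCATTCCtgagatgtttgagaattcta
Ankrd1 (chr19:36119942-36120074, minus strand): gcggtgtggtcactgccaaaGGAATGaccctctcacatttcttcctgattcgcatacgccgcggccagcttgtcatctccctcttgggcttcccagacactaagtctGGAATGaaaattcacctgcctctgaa
Amotl2 (chr9:102717719-102717764, plus strand): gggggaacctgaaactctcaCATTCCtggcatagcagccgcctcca
Yap1 (chr9:8004712-8004757, minus strand): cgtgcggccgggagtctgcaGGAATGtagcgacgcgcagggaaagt
Wwtr1 (chr3:57576021-57576066, minus strand): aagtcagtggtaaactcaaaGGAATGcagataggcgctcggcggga

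The first Ajuba match lay 186 bases before the start and the next 164 bases before it. Those of Ankrd1 lay 210 and 123 bases before the start, that of Ccn1 103, that of Amotl2 65 and that of Yap1 141 bases before it. Wwtr1 has 2 windows for starts close together, which share the match 136 or 170 bases before the start. None of these windows held TGACTCA or its reverse complement TGAGTCA, the letters bound by the AP-1 factors FOS and JUN, which were present in 5.2% of all windows.

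Reads on genes lay between 5332897 and 16961379 per liver, with a median of 15879971, and 2 livers (KO:HET animal 3 and KO:HOM animal 17) had fewer than 10000000. Levels are given as CPM, the counts scaled to a library of 1000000 reads, after TMM scaling, which adjusts each library for a shift in the bulk of its genes. Nr1h3 itself averaged 91.8 ± 5.04 CPM in DN:WT (SD, n = 7) and 72.8 ± 3.56 in DN:HOM (n = 7). It averaged 93.6 ± 8.82 CPM in KO:WT, 59.2 ± 5.63 in KO:HET and 27 ± 1.99 in KO:HOM (SD, n = 8 each), in the order of the labels. The study's own source sheet of knock-in livers, when matched to the counts, held neither animal 10 of DN:WT nor animal 12 of DN:HOM. Animal 10 lay inside the range of the other DN:HOM livers for 8 of the 9 genes, and animal 12 inside the range of the other DN:WT livers for 8 of 9. Whether the labels of these 2 livers were exchanged was not tested. Neither liver was moved: the groups below are given without them (DN:WT and DN:HOM, n = 7), and values with all 48 livers as labelled stand beside the calls in homozygous livers.

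The pattern over the 9 genes differed between the alleles. In DN:HOM against DN:WT, 6 of the 9 were higher and 1 was lower at an adjusted p under 0.05 (edgeR quasi-likelihood test), where 59.1% of all 15711 genes tested passed, 29.1% higher and 30% lower. The genes that were higher were Ankrd1, Ccn2, Ajuba, Tead1, Ccn1 and Lats2, from 1.58-fold to 10.8-fold. Amotl2 was lower, and Yap1 and Wwtr1, the coactivators themselves, did not pass. With all 48 livers the calls were again 6 higher and 1 lower, where 48% of genes passed. In KO:HOM against KO:WT, 1 of the 9 passed (Wwtr1, higher), where 19.4% of all genes passed, 11.5% higher and 7.87% lower, and with all 48 livers Wwtr1 was again the one call, where 12.9% passed. The 7 calls among 9 in DN:HOM are to be read against the large share of all genes that passed there. The median log2 fold change was 1.14 over the 9 genes and -0.01 over all genes in DN:HOM, and -0.00 and -0.02 in KO:HOM. The 9 genes and the lists below were chosen with earlier results of these data known, so such medians are descriptions.

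**Figure D1:**
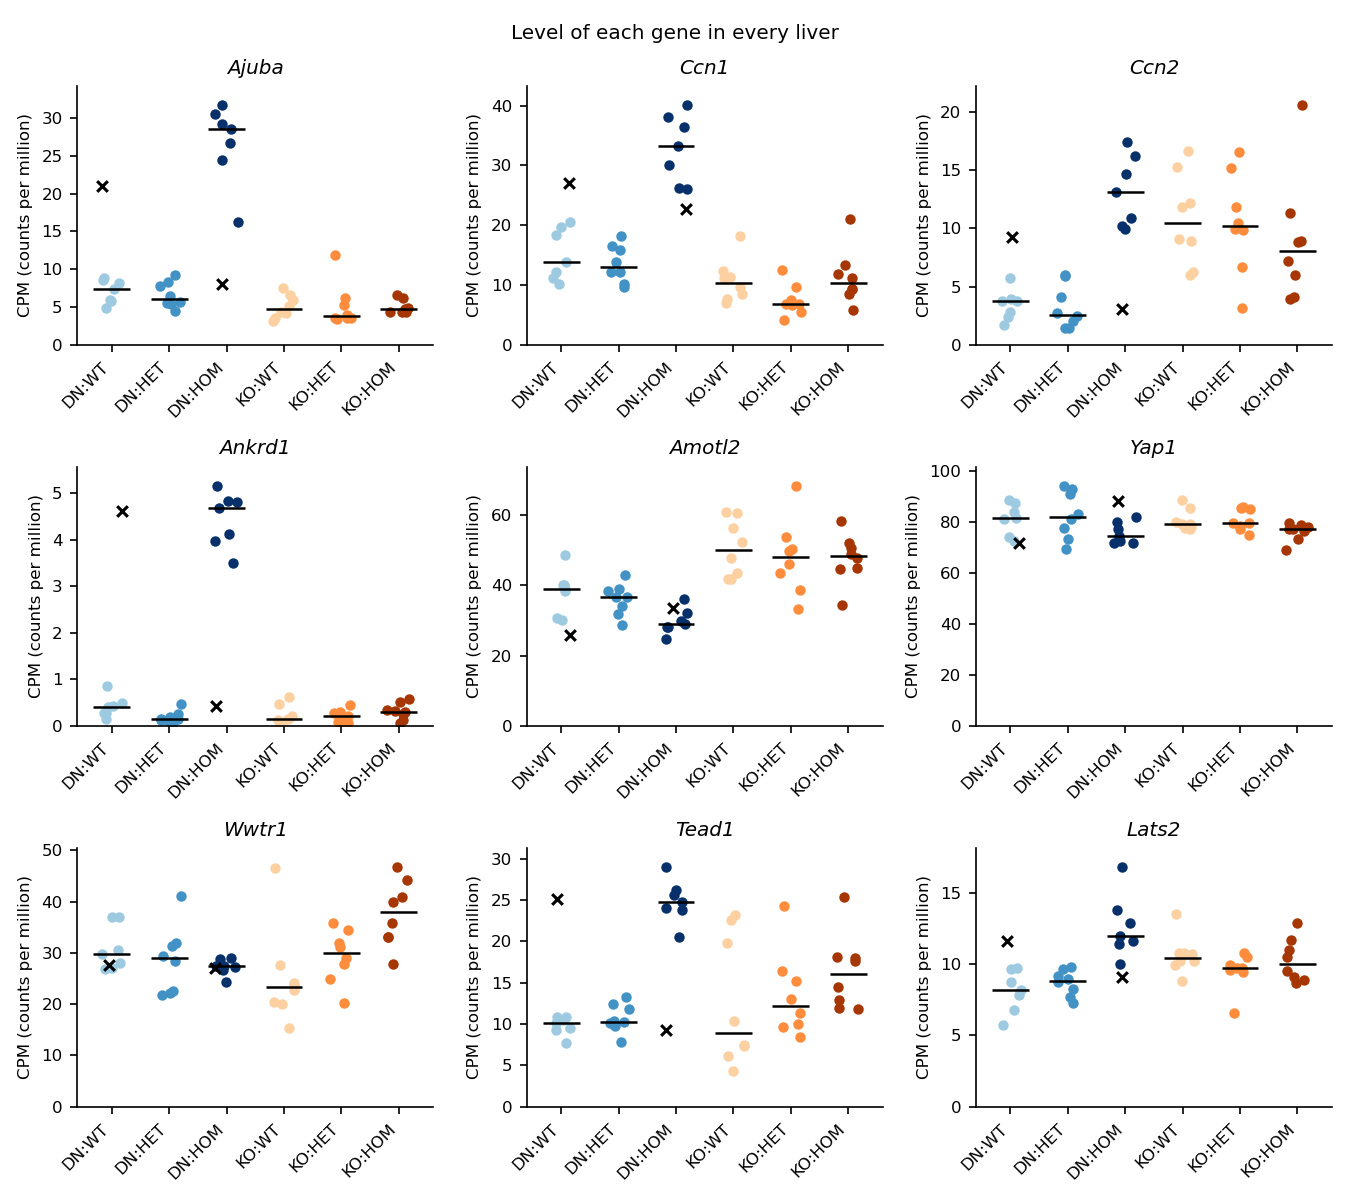
CPM of each of the 9 genes (vertical axis, from 0, with its own scale for each gene) in every liver of the 6 groups, with a bar at the median. Crosses are the livers of DN:WT animal 10 and DN:HOM animal 12, left out of the medians. Crosses aside, the 7 DN:HOM livers lie above the 7 DN:WT livers for Ajuba, Ccn1, Ccn2, Ankrd1, Tead1 and Lats2.

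Ajuba (chr14:54804787-54815027, minus strand, GRCm39 here and for the genes that follow) encodes a LIM domain protein that gathers LATS kinases at cell junctions and holds down their activity. Its lowest, median and highest levels were 4.89, 7.35 and 8.77 CPM in DN:WT, 4.48, 6.08 and 9.2 CPM in DN:HET, and 16.3, 28.5 and 31.7 CPM in DN:HOM. Every DN:HOM liver lay above every DN:WT and DN:HET liver, as was so for 6 of the 9 genes. Against DN:WT alone the same 6 of the 9 had no overlap, where 33.5% of all genes tested had none, in either direction. With DN:WT animal 10 and DN:HOM animal 12 kept, the DN:HOM and DN:WT ranges overlapped for each of those 6 genes. For Ajuba, DN:WT then reached up to 21 CPM and DN:HOM down to 7.97 CPM. Ajuba was 3.82-fold higher (log2 fold change 1.93, SE 0.21, adjusted p = 2.04e-10), and 2.76-fold higher with all 48 livers (adjusted p = 4.02e-05). In the knockout livers the levels were 3.16, 4.74 and 7.49 CPM in KO:WT and 4.35, 4.72 and 6.61 CPM in KO:HOM. These groups overlapped throughout, with a log2 fold change of -0.00 and a 95% interval of -0.43 to 0.42.

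Ankrd1 (chr19:36089352-36097506, minus strand) encodes an ankyrin repeat protein of muscle and stressed tissue that is among the usual reporters of YAP and TAZ. Per kilobase of exon it was the lowest of the 9 transcripts in every group but DN:HOM. Its lowest, median and highest levels were 0.148, 0.409 and 0.857 CPM in DN:WT, on 2 to 12 reads, and 3.5, 4.68 and 5.15 CPM in DN:HOM, on 73 to 114 reads. The DN:HOM livers stood far apart from all others and varied little among themselves, with an SD of 13.1% of their mean. The change was 10.8-fold (log2 fold change 3.43, SE 0.37, adjusted p = 1.3e-10) and 4.04-fold with all 48 livers (adjusted p = 0.000844). In KO:WT the levels were 0, 0.142 and 0.625 CPM and in KO:HOM 0.0617, 0.304 and 0.57 CPM. At 0 to 9 reads a liver, the knockout difference (log2 fold change 0.39, 95% interval -0.55 to 1.33) was not detectable at this depth.

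Ccn2 (chr10:24471333-24474900, plus strand) encodes connective tissue growth factor, a secreted matrix-associated protein made by hepatocytes and stellate cells in fibrosis. In DN:WT it ran from 1.7 to 5.74 CPM with a median of 3.75, in DN:HET from 1.41 to 5.97 with a median of 2.58, and in DN:HOM from 9.94 to 17.4 with a median of 13.1. The lowest DN:HOM liver lay above the highest of both other knock-in groups. The change was 3.87-fold (log2 fold change 1.95, SE 0.34, adjusted p = 3.72e-06) and 2.84-fold with all 48 livers (adjusted p = 0.000673). The knockout groups had a different base. Ccn2 ran from 5.98 to 16.7 CPM with a median of 10.4 in KO:WT and from 3.91 to 20.6 with a median of 8.02 in KO:HOM. The 8 KO:WT livers all lay above the 7 DN:WT livers, and the KO:WT range overlapped that of DN:HOM. KO:HOM did not pass against KO:WT (log2 fold change -0.28, 95% interval -0.89 to 0.33).

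Ccn1 (chr3:145352720-145355738, minus strand), which encodes the related matrix protein CYR61, moved less. Its lowest, median and highest levels were 10.1, 13.8 and 20.5 CPM in DN:WT, 9.7, 13.1 and 18.2 in DN:HET, and 26.1, 33.2 and 40.1 in DN:HOM. DN:HOM again did not overlap either group, and the change was 2.2-fold (log2 fold change 1.14, SE 0.21, adjusted p = 1.26e-05) and 1.9-fold with all 48 livers (adjusted p = 0.000526). DN:HOM animal 12 is the exception to its own pattern here, since its 22.8 CPM lay above the DN:WT range. In the knockout livers Ccn1 ran from 6.97 to 18.2 CPM in KO:WT, from 4.2 to 12.5 in KO:HET and from 5.78 to 21 in KO:HOM. The KO:HOM difference from KO:WT did not pass (log2 fold change 0.07, 95% interval -0.35 to 0.49).

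Of the nuclear partners, Tead1 (chr7:112278522-112506014, plus strand), the DNA-binding factor, was higher in DN:HOM while the coactivators were not. Its lowest, median and highest levels were 7.75, 10.1 and 10.9 CPM in DN:WT, 7.88, 10.3 and 13.3 in DN:HET, and 20.5, 24.8 and 29 in DN:HOM, with no overlap. The change was 2.55-fold (log2 fold change 1.35, SE 0.25, adjusted p = 8.77e-06) and 1.94-fold with all 48 livers (adjusted p = 0.00321). The KO:WT livers were uneven, from 4.37 to 23.2 CPM with a median of 8.94, and 3 of them (animals 23, 33 and 34) were at 19.8 CPM or more. KO:HOM ran from 11.8 to 25.4 with a median of 16 and did not pass (log2 fold change 0.36, 95% interval -0.10 to 0.83). All 8 KO:HOM livers lay above the KO:WT median, within the KO:WT range except for animal 11.

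Yap1 (chr9:7932000-8004661, minus strand), the highest of the 9 per kilobase of exon in every group but DN:HOM, kept a narrow range. Its group medians lay between 74.5 and 82.1 CPM and its SD between 4.58% and 11.1% of the mean in the 6 groups. DN:HOM ran from 71.7 to 82.2 CPM against 72.8 to 88.9 in DN:WT, which overlap, and the log2 fold change of -0.09 did not pass (95% interval -0.21 to 0.02), nor did -0.05 with all 48 livers (adjusted p = 0.449). The knockout value was also -0.09 (95% interval -0.20 to 0.02). Scaled by library size alone in place of TMM, which moves the median of all genes by 0.42 in DN:HOM, the Yap1 value was 0.34 (adjusted p = 7.07e-08), so its sign turned with the scaling while it stayed below the median of all genes.

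Wwtr1 (chr3:57363067-57483331, minus strand), the gene for TAZ, was the one gene called in the knockout livers. KO:WT ran from 15.3 to 46.6 CPM with a median of 23.2, KO:HET from 20.3 to 35.8 with a median of 30, and KO:HOM from 27.9 to 46.7 with a median of 37.9. All 8 KO:HOM livers lay above the KO:WT median, yet the groups overlapped because of KO:WT animal 23 at 46.6 CPM. None of the 9 genes separated KO:HOM from KO:WT without overlap, where 2.55% of all genes did. The change was 1.49-fold (log2 fold change 0.58, SE 0.14, adjusted p = 0.00266), with a log2 fold change of again 0.58 with all 48 livers (adjusted p = 0.00386). In the knock-in livers DN:WT ran from 26.8 to 37.0 CPM and DN:HOM from 24.3 to 28.9, with a log2 fold change of -0.17 that did not pass (95% interval -0.47 to 0.13), nor did -0.16 with all 48 livers (adjusted p = 0.344). Library size alone gave 0.26 (adjusted p = 0.101), again with the median of all genes moved by 0.42, so the sign turned there too while Wwtr1 stayed below that median.

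Lats2 (chr14:57926960-57995845, minus strand) encodes the kinase that phosphorylates YAP and TAZ and is itself a target of theirs. It ran from 5.7 to 9.71 CPM with a median of 8.15 in DN:WT and from 9.99 to 16.8 with a median of 12 in DN:HOM. The groups did not overlap, though the lowest DN:HOM liver exceeded the highest DN:WT liver by little. The change was 1.58-fold (log2 fold change 0.66, SE 0.11, adjusted p = 3.57e-06) and 1.43-fold with all 48 livers (adjusted p = 0.000458). KO:HOM did not pass (log2 fold change -0.06, 95% interval -0.27 to 0.16). An exon of Lats2 is shared with Gm49361 on the same strand, and reads over shared bases are left out by the counting, so its level is uncertain.

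Amotl2 (chr9:102593836-102610617, plus strand) encodes an angiomotin that holds YAP at cell junctions and is known as a YAP target too. It went the other way from the other targets in DN:HOM. It ran from 30.2 to 48.8 CPM with a median of 38.9 in DN:WT and from 24.7 to 36.1 with a median of 28.9 in DN:HOM. The groups overlapped, and 5 of the 7 DN:HOM livers lay below every DN:WT liver. The change was a 1.27-fold fall (log2 fold change -0.35, SE 0.12, adjusted p = 0.0113). It was -0.28 with all 48 livers (adjusted p = 0.0479), -0.26 with upper-quartile scaling (adjusted p = 0.0501) and 0.08 with library size alone (adjusted p = 0.559). That last scaling moves the median of all genes by 0.42, so Amotl2 lay below that median there too, and whether it passed depends on the scaling. The knockout difference did not pass (log2 fold change -0.09, 95% interval -0.32 to 0.13).

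**Figure D2:**
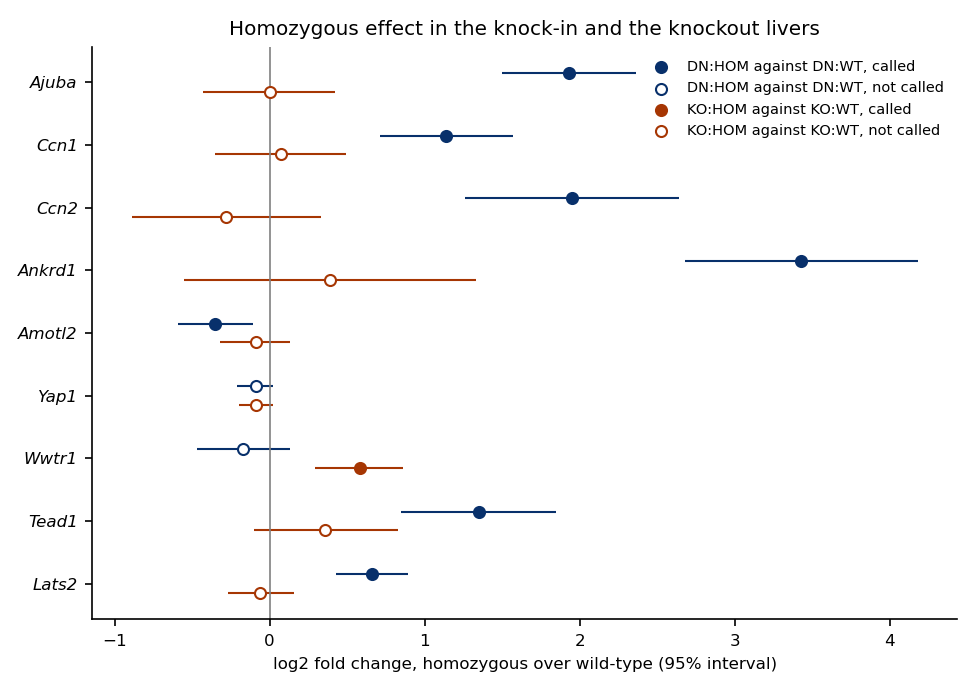
Log2 fold change of homozygous over wild-type livers (horizontal axis) with its 95% interval for each gene in the knock-in (blue) and the knockout (red) study. Filled points passed an adjusted p under 0.05, which 7 genes did in DN:HOM and Wwtr1 alone did in KO:HOM.

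In livers with 1 mutant copy none of the 9 genes passed. For DN:HET against DN:WT edgeR called 0 of 9, where 2.30% of all genes passed at an adjusted p under 0.05, and DESeq2 called 0 of 9. At an unadjusted p under 0.05, where the share of all genes was not counted, there was 1 gene. That gene was Ankrd1, at 0.0646 to 0.469 CPM in DN:HET, with a log2 fold change of -1.03 (95% interval -1.96 to -0.11, adjusted p = 0.289). With DN:WT animal 10 kept, as in the fit to all 48 livers, it was -2.27 and still did not pass (adjusted p = 0.0747). For KO:HET against KO:WT both tools again called 0 of 9, where 0.0191% of all genes passed at an adjusted p under 0.05 in edgeR. At an unadjusted p under 0.05, where the share of all genes was again not counted, there was 1 gene. That gene was Ccn1, with a log2 fold change of -0.53 (95% interval -0.96 to -0.10, adjusted p = 0.677). The intervals for Ajuba in heterozygous livers ran from -0.52 to 0.32 in the knock-in and from -0.39 to 0.45 in the knockout, which leaves out the size of the DN:HOM change.

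Against heterozygous livers, DN:HOM showed 6 of the 9 genes called, all higher, where 53.9% of all genes passed. Ankrd1 was 22-fold higher (log2 fold change 4.46, SE 0.38, adjusted p = 3.99e-13) and Ajuba 4.1-fold higher (log2 fold change 2.03, SE 0.20, adjusted p = 2.49e-11). Amotl2 missed the threshold here (log2 fold change -0.26, adjusted p = 0.051). When all 48 livers were used, again 6 of the 9 were called, all higher, where 46.4% of all genes passed, with Ankrd1 19.4-fold and Ajuba 3.7-fold higher. This contrast shares its DN:HOM livers with the one above. For KO:HOM against KO:HET, edgeR called 0 of 9, where 10.6% of all genes passed, and DESeq2 called 1, where 7.24% passed, both at an adjusted p under 0.05. By edgeR 2 genes were at an unadjusted p under 0.05, where the share of all genes was not counted. Ccn1 had a log2 fold change of 0.60 (adjusted p = 0.0592 by edgeR, 0.0421 by DESeq2) and Wwtr1 0.35 (adjusted p = 0.108). The edgeR fit to all 48 livers also called 0 of 9, where 4.72% of all genes passed and the same 2 genes were at an unadjusted p under 0.05.

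The difference between the homozygous effects was itself tested, as the knock-in effect minus the knockout effect. It passed for 7 of the 9 genes, where 34.7% of all genes passed. It was positive for Ankrd1 (3.04 on the log2 scale, SE 0.62, adjusted p = 0.000135), Ccn2 (2.23, SE 0.45, adjusted p = 0.00013) and Ajuba (1.93, SE 0.30, adjusted p = 1.68e-06). It was positive also for Ccn1 (1.07, SE 0.30, adjusted p = 0.00396), Tead1 (0.99, SE 0.34, adjusted p = 0.019) and Lats2 (0.71, SE 0.16, adjusted p = 0.000364). It was negative for Wwtr1 (-0.75, SE 0.21, adjusted p = 0.0039). For Amotl2 (-0.25, 95% interval -0.58 to 0.08) and Yap1 (-0.00, 95% interval -0.17 to 0.16) it did not pass. With all 48 livers as labelled 10.5% of all genes passed, and 4 of the 9 did. Ajuba, Ccn2, Wwtr1 and Lats2 were those 4, while Ccn1 (0.85, adjusted p = 0.0582), Ankrd1 (1.61, adjusted p = 0.206) and Tead1 (0.59, adjusted p = 0.308) did not pass.

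The wild-type groups of the studies were not alike for these genes. In KO:WT against DN:WT 3 of the 9 genes passed, all higher in KO:WT, where 12% of all genes passed. Ccn2 was 3.16-fold higher (log2 fold change 1.66, SE 0.33, adjusted p = 0.000555), Amotl2 1.34-fold higher (adjusted p = 0.0122) and Lats2 1.32-fold higher (adjusted p = 0.0125). Ccn2 was thus 3.16-fold above DN:WT in KO:WT and 3.87-fold above the same DN:WT livers in DN:HOM. Site, background and colony cannot be told apart in the first of these. With all 48 livers 5 of the 9 genes passed in this comparison, where 12.7% of all genes did: Ccn2 and Amotl2 higher, and Ajuba, Ccn1 and Ankrd1 lower in KO:WT.

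Per kilobase of exon (RPKM), which allows levels of different genes to be set side by side, the order in DN:WT was Yap1, Ccn1, Amotl2, Wwtr1, Ajuba, Ccn2, Lats2, Tead1 and Ankrd1. Yap1 was at 8.69 ± 0.651 and Ankrd1 at 0.137 ± 0.0768 RPKM (SD, n = 7). Only the steps from Amotl2 (5.4 ± 0.893) to Wwtr1 (2.61 ± 0.371), and from Tead1 (0.724 ± 0.0809) to Ankrd1, exceeded the sum of the neighbours' SDs in this order. In DN:HOM the order was Ccn1, Yap1, Ajuba, Amotl2, Ccn2, Wwtr1, Tead1, Ankrd1 and Lats2. Ccn1 stood first at 16.2 ± 2.77 RPKM, above Yap1 at 8.08 ± 0.444 by more than the sum of their SDs, and Ajuba stood next at 7.05 ± 1.37, below Yap1 by less than that sum. Ankrd1 at 1.49 ± 0.196 RPKM differed from its neighbours Tead1 (1.83 ± 0.19) and Lats2 (1.21 ± 0.208) by less than the sum of the SDs. In KO:WT and KO:HOM the first place was held by Yap1 (8.62 ± 0.447 and 8.15 ± 0.373 RPKM, n = 8 each) and the last by Ankrd1. The step from Yap1 to the next gene, Amotl2, was smaller than the sum of their SDs in KO:WT (Amotl2 7.17 ± 1.14) and larger in KO:HOM (6.76 ± 0.98).

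The rest of the pathway was read from lists of genes written by hand, without the 9 genes except where said. Of 19 genes of the kinase module and its upstream regulators, 8 were higher, 4 lower and 7 not called in DN:HOM, with a median log2 fold change of 0.14. Over all genes 59.1% passed, 29.1% higher and 30% lower, so this count lies near the background, and with all 48 livers 8 were higher and 2 lower. Ptpn14, a phosphatase that binds YAP (log2 fold change 1.95), and Map4k4, a kinase that can activate LATS (1.90), led it, with Frmd6 (1.46), an upstream scaffold, and the large cadherin Fat1 (0.67), and with all 48 livers Ptpn14 was at 1.36 and Map4k4 at 1.2. The core kinases Stk3 (0.01) and Stk4 (0.10) did not pass. In KO:HOM 1 of the 19 was higher (Stk4, 0.21, adjusted p = 0.0286), 1 lower (Dchs1, a protocadherin, -0.59, adjusted p = 0.0326) and 17 not called, where 19.4% of all genes passed, and the 4 leading genes in DN:HOM had values of -0.20, 0.40, 0.15 and -0.08 in the same order.

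Relatives of Ajuba, Amotl2 and Tead1 were counted in a list of 9 genes. In DN:HOM 6 were higher, 2 lower and 1 not called, with a median of 1.10, where 59.1% of all genes passed. With all 48 livers 5 were higher and 1 lower (median 0.74), where 48% of all genes passed and Tead4 (1.04, adjusted p = 0.0771) and Vgll4 (-0.16, adjusted p = 0.295) did not pass. Vgll3, a TEAD cofactor (1.91), Tead2 (1.45), the LIM protein gene Wtip (1.39) and Tead4 (1.36) led, and the low-count Tead4 and Vgll3 averaged under 1 CPM in DN:WT. Limd1 (-0.21) and Vgll4 (-0.30), a TEAD repressor, were lower, and were named after their values were seen. In KO:HOM 1 was lower (Tead3, -0.27, adjusted p = 0.0214) and 8 were not called, where 19.4% of all genes passed.

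The YAP and TAZ target signature holds 22 genes, among them Amotl2, Lats2, Ccn1, Ccn2 and Ankrd1. Of 21 tested, 13 were higher, 5 lower and 3 not called in DN:HOM (median log2 fold change 1.13), where 59.1% of all genes passed, and in the fit to all 48 livers 13 were higher and 5 lower (median 0.72), where 48% passed. Fjx1 (3.93), Tgfb2, which encodes a TGFβ ligand (3.50), Myof, which encodes a membrane repair protein (3.49), and Ankrd1 led. With all 48 livers Fjx1 was at 2.49, Tgfb2 at 2.31 and Myof at 2.13. Fjx1 had 0 reads in 3 of the 7 DN:WT livers, so its fold depends on the prior count. The 5 lower genes, named after their values were seen, were Amotl2, Igfbp3 (-0.65), Gadd45a (-0.99), Nt5e (-1.18) and Dock5 (-0.30). In KO:HOM 4 were higher and 1 lower of 21 (median 0.23), where 19.4% of all genes passed. When all 48 livers were used, 2 were higher (Myof and Axl) and none lower, where 12.9% of all genes passed. The genes called were Myof (2.36), the receptor kinase gene Axl (1.53), Ccdc80 (1.04), Tgfb2 (1.03) and, lower, Nt5e (-0.78). Axl (1.65) and Ccdc80 (3.23, and 1.94 with all 48 livers) were higher in DN:HOM as well.

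Among the other CCN genes, Ccn5 had a log2 fold change of 4.92 in DN:HOM and 2.57 in KO:HOM, Ccn4 had 0.98 in DN:HOM and -0.23 in KO:HOM, where it did not pass, and Ccn3 and Ccn6 were too low to test. These 4 genes together summed to only 1.77 to 3.11 CPM in DN:WT and 1.19 to 2.62 CPM in KO:WT, so the folds start from low counts. The difference between the studies passed for Ccn4 and Ccn5, and with all 48 livers it passed for neither of them, and in DN:HOM Ccn5 came to 2.80 (adjusted p = 0.00027) and Ccn4 missed the threshold (0.65, adjusted p = 0.0505). Of 9 immediate early genes, whose transcripts rise quickly after a stimulus, 7 were higher and 1 lower in DN:HOM (median 2.16), where 29.1% of all genes were higher and 30% lower, led by Fosb (3.69), Fos (3.33), Ier3 (3.19) and Atf3 (2.86), and with all 48 livers 6 were higher and none lower (median 1.27), with Fosb at 1.78, Fos at 1.81, Ier3 at 1.74 and Atf3 at 1.64. In KO:HOM 2 were higher (Ier3, 1.56, and Atf3, 1.29) and 1 lower (Ier2, -0.45), where 19.4% of all genes passed, and with all 48 livers, where 12.9% did, Ier2 alone passed. Of 8 tested SRF and actin cytoskeleton genes, 6 were higher and none lower in DN:HOM (median 0.78, and 0.60 with all 48 livers, where again 6 were higher), against the same shares of all genes, led by Flna (1.80), Tpm1 (1.76), Actg1 (1.03) and Tagln (0.87). In KO:HOM 2 were higher (Flna, 0.73, and Actg1, 0.52) and 1 lower (Myl9, -0.75), and with all 48 livers Flna did not pass.

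**Figure D3:**
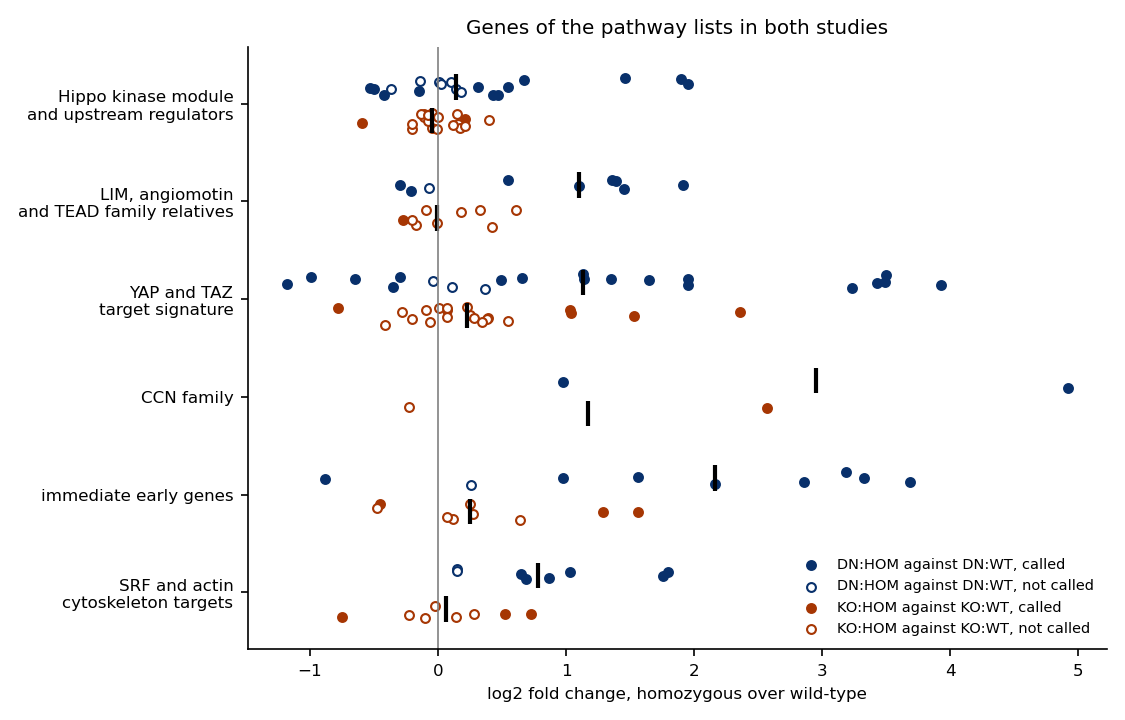
Log2 fold change of homozygous over wild-type livers (horizontal axis) for each tested gene of 6 lists, in the knock-in (blue) and the knockout (red) study, with a black bar at the list's median. Filled points passed, and the medians of the target signature are 1.13 in DN:HOM and 0.23 in KO:HOM.

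Markers of several liver cell types also changed in DN:HOM. In whole liver, fewer cells of a type and less RNA per cell cannot be told apart. Each summed level gives most weight to the most abundant markers of its list, so it does not measure the amount of a cell type. All 8 tested cholangiocyte (bile duct) markers were higher in DN:HOM, with a summed level of 43.7 to 81.2 CPM in DN:WT and 751 to 1095 CPM in DN:HOM. Of 11 stellate cell markers 10 were higher, with sums of 271 to 342 CPM and 869 to 1204 CPM. Of 8 hepatocyte markers 7 were lower, with sums of 63595 to 80123 CPM and 30342 to 41965 CPM. None of these ranges overlapped. Of all genes tested 29.1% were higher and 30% lower in DN:HOM. Taken singly, 33.5% of genes had no overlap between DN:HOM and DN:WT. Of the livers left aside, DN:WT animal 10 had sums of 1190 CPM (cholangiocyte), 1167 CPM (stellate) and 40422 CPM (hepatocyte) and DN:HOM animal 12 had 58.3, 297 and 83670 CPM, so that with both of them kept all 3 pairs of ranges overlapped. In the fit to all 48 livers 7 cholangiocyte and 9 stellate markers were higher and 6 hepatocyte markers were lower, where 48% of all genes passed. The part of cell makeup in the changes of the 9 genes was not tested.

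Other lists were mixed in DN:HOM and are to be read against the 29.1% of all genes that were higher and the 30% that were lower. Of 9 endothelial markers 1 was higher and 5 lower, of 9 macrophage markers 5 were higher and 4 lower, of 4 mesothelial markers 2 were higher, and of 7 T and B cell markers 2 were higher and 1 lower. In the fit to all 48 livers no endothelial marker was higher and 5 were lower, 4 macrophage markers were higher and 4 lower, 1 mesothelial marker was higher, and no T and B cell marker passed. In KO:HOM, where 11.5% of all genes were higher and 7.87% lower, 1 of 8 cholangiocyte markers was higher (sums 36.7 to 116 CPM in KO:WT and 51.7 to 198 CPM in KO:HOM), 7 of 11 stellate markers were higher (241 to 512 and 348 to 620 CPM) and 6 of 8 hepatocyte markers were lower (75472 to 102374 and 55468 to 79043 CPM). Those ranges overlapped, and with all 48 livers, where 12.9% of all genes passed, no cholangiocyte marker and 3 stellate markers were higher and 3 hepatocyte markers were lower. Of the same lists in KO:HOM, 1 endothelial marker was higher and 1 lower, 4 macrophage markers were higher and 2 lower, no mesothelial marker passed, and 4 T and B cell markers were higher, where with all 48 livers 3 macrophage markers were higher and 1 lower and the other counts were as given. In DN:HET, the livers of animals 22 and 4 had the highest cholangiocyte sums, 238 and 190 CPM, and also the highest macrophage sums, 649 and 552 CPM. Ajuba was at 8.26 and 9.2 CPM in them, the highest of the 8 DN:HET livers. Animal 22 was also the highest for Ccn2 (5.97 CPM) and Ankrd1 (0.469 CPM) and animal 4 for Tead1 (13.3 CPM), whereas animal 4 was the lowest of the 8 for Amotl2, Yap1, Wwtr1 and Lats2.

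**Figure D4:**
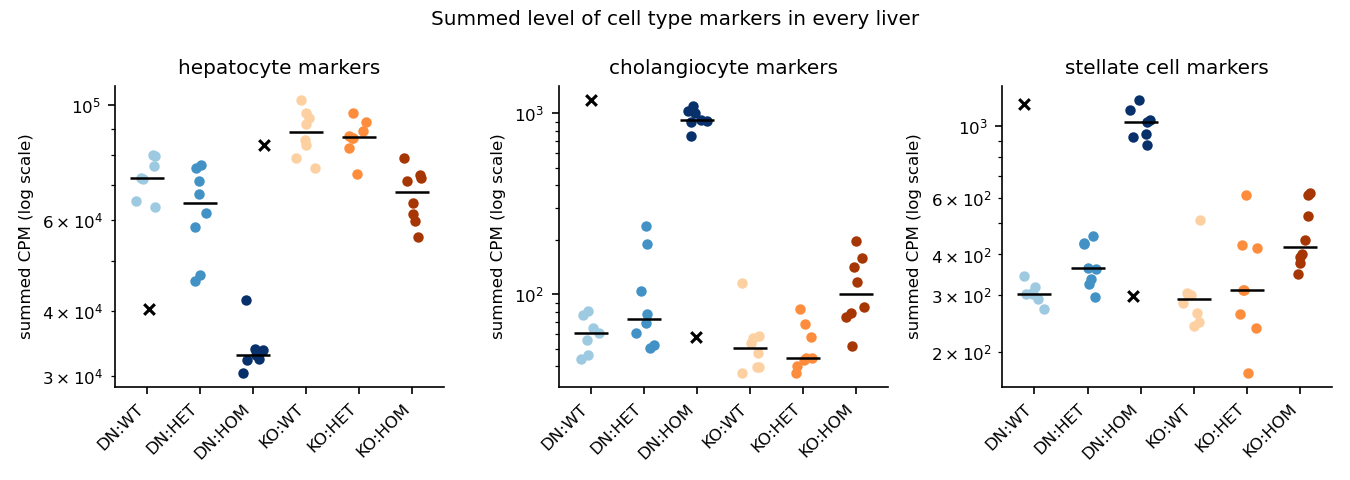
Summed CPM (vertical axis, log scale) of the hepatocyte, cholangiocyte and stellate cell markers in every liver of the 6 groups, with a bar at the median and crosses for DN:WT animal 10 and DN:HOM animal 12. Crosses aside, the 7 DN:HOM livers lie apart from the DN:WT livers in all 3 panels.

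Within groups the 9 genes varied largely apart from each other. After the mean of each group was taken off the log2 CPM values, the correlation over the 46 livers ran from -0.31 to 0.50 for the 36 pairs, with a median of 0.05. It was highest for Ankrd1 with Tead1 (0.50) and Ccn2 with Tead1 (0.42), and lowest for Ccn1 with Tead1 (-0.31). These livers share scaling and, within a study, handling, and the values are descriptions.

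The genes most like each of the 9 in this measure were sought among 11716 genes with a mean log2 CPM of 1 or more, which leaves out Ankrd1 as a neighbour. The best 3 of so many genes can be high through the size of the search alone, so these values are not to be set against those of the 36 pairs. For Wwtr1 they were Entpd5 (0.85), Themis (0.82) and Dusp22 (0.82), for Tead1 Gata6 (0.79), Spred1 (0.75) and Megf9 (0.74), and for Ccn2 Cebpd (0.78), Acer2 (0.70) and Tmem204 (0.67). For Yap1 they were Gid4 (0.72), Rnf10 (0.71) and Man1a (0.71), and for Amotl2 Foxk1 (0.70), Col18a1 (0.67) and Klf10 (0.63). No member of the 9 was among the nearest genes of another. For Ajuba they were Kifc3 (0.66), Kctd3 (0.65) and Spint2 (0.65), for Ccn1 Iffo2 (0.64), Smad7 (0.61) and Bhlhe40 (0.58), for Lats2 Tshz1 (0.61), Rbbp6 (0.55) and Zpr1 (0.52), and for Ankrd1 Tacc2, Pgm2 and Ccdc120 (0.57 each).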

How the data were processed

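Liver mRNA was sequenced as stranded libraries, and the authors aligned the reads to GRCm39 with STAR 2.5.0a and deposited raw counts per gene, unstranded and by strand. The sense-strand column was used, whose total was 6.97 to 8.62 times that of the antisense column. Rows naming no gene held 24% to 35% of reads and were left out. Symbols and positions came from the GENCODE annotation of GRCm39 (54749 of 55416 identifiers matched), promoter sequences from RefSeq (GRCm38.p6).

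Differential expression was fitted in edgeR 4.0.16 under R 4.3.3 (filterByExpr, TMM, quasi-likelihood F test on 6 group means, Benjamini-Hochberg over all genes, threshold 0.05) on 46 livers, without DN:WT animal 10 and DN:HOM animal 12. CPM used TMM sizes over all 48 livers, and log2 CPM a prior count of 2. Intervals are 95% and come from the model's SE. The script was tested on simulated data. Alternatives were all 48 livers, DESeq2 1.42.0, other scalings and filters, unstranded counts, each study alone, no shallow livers and a threshold of 0.01. Each list names up to 4 called genes with the largest change per study, and each of the 9 genes its 3 nearest genes, with exceptions said. Tools were Python 3.11.15, numpy 2.4.6, pandas 2.3.3 and matplotlib 3.10.9. The 9 genes and all lists were chosen with earlier results of these data known. Each liver is labelled by its own animal number. A marker gene of the lists is not reported here by name.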

Additional observations from a re-analysis of the deposited data

Results flagged for a closer look

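In 54 sets of 8 livers (9 genes in 6 groups as labelled), 11 values, from 7 livers, stood apart from the rest of their set by Dixon's test, which chance gives in about 1 of 20 sets. DN:WT animal 10 did so for Ajuba (21 CPM), Ankrd1 (4.61 CPM) and Tead1 (25.2 CPM), and DN:HOM animal 12 for Ankrd1 (0.42 CPM) and Tead1 (9.23 CPM). These 5 came from the livers left out of the comparisons. KO:HOM animal 11 stood high for Ccn2 (20.6 CPM) and Tead1 (25.4 CPM), and it had the highest stellate marker sum of its group (620 CPM). KO:HET animal 9 stood high for Ajuba (11.9 CPM), and its stellate marker sum of 609 CPM and cholangiocyte sum of 83.2 CPM were the highest of its group. KO:WT animal 23 stood high for Wwtr1 (46.6 CPM), and its cholangiocyte sum (116 CPM) and stellate sum (512 CPM) were the highest of its group. Lats2 was high in KO:WT animal 32 (13.5 CPM) and low in KO:HET animal 4 (6.6 CPM). Only marker sums that were the highest of their group are named here, and none is given for the livers flagged for Lats2. The part of cell makeup in the flagged values was not tested.

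The homozygous effects of the studies differed by the test of the difference itself for Ajuba (1.93), Ccn1 (1.07), Ccn2 (2.23), Ankrd1 (3.04), Wwtr1 (-0.75), Tead1 (0.99) and Lats2 (0.71), all on the log2 scale as the knock-in minus the knockout effect. Allele and study site cannot be told apart in this difference, and the sex of the knockout mice is not given in the labels.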

How the results depend on the processing

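Among recomputed fold changes of the 9 genes, 361 kept their direction and their side of the threshold, 5 kept the direction but fell short of it and 28 changed sign. Library size alone in place of TMM, chosen after seeing the data, moved the median of all genes by 0.42 in DN:HOM and 0.09 in KO:HOM. It turned Amotl2 in DN:HOM to 0.08, Yap1 to 0.34 and Wwtr1 to 0.26, Ajuba, Amotl2, Yap1 and Lats2 in KO:HOM to 0.11, 0.02, 0.03 and 0.06, Yap1 in KO:HET to 0.01, and the Amotl2 and Yap1 differences between studies to 0.06 and 0.31, and took the Wwtr1 difference to -0.43 (adjusted p = 0.0725). Of these values only Yap1 in DN:HOM and its difference passed, and Amotl2 in DN:HOM lost its call. Under the other settings the sign changes were of values that passed in neither: Ajuba in KO:HOM (-0.00) came to between 0.00 and 0.03, Yap1 in KO:HET (-0.01) to 0.00 or 0.01, the Yap1 difference (-0.00) to between 0.00 and 0.05, and Tead1 in DN:HET (0.12), with all 48 livers, to -0.14. Of all genes called in DN:HOM, 9283 were higher and 1738 lower under it, against 4579 and 4713. Under it 2 of the 9 genes passed in KO:HOM against KO:HET (12.4% of all genes), and under DESeq2 (7.24%) and upper-quartile scaling (10.4%) 1 did (Ccn1), against 0 (10.6%). With all 48 livers 4 of the 9 passed for the difference between studies and 5 for KO:WT against DN:WT, in place of 7 and 3, and at an adjusted p under 0.01 the latter count was 1. The cause of these shifts was not tested. No paired analysis was possible because animal numbers are not shared between the groups of a study. Depth limits Ankrd1, which rests on 0 to 12 reads outside DN:HOM, with DN:WT animal 10 left aside.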
